A study of Saccharomyces cerevisiae with 10 samples.

Results

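The nuclear genes of oxidative phosphorylation were examined for binding of Swc4 in Saccharomyces cerevisiae. They were 38 named genes out of 6002 nuclear protein-coding genes with a known strand in the R64 gene table, and all 38 were found there. They were listed by the complex they belong to, with earlier results of these data known. Of the 38, 4 encode succinate dehydrogenase (complex II), 9 the cytochrome bc1 complex (complex III), 9 cytochrome c oxidase (complex IV) and 12 the ATP synthase (complex V). A further 2 each encode cytochrome c isoforms and NADH dehydrogenases. The list does not hold every subunit, and others are among the further genes looked up below. Swc4 was mapped by ChIP-seq, chromatin immunoprecipitation followed by sequencing, with an antibody to the c-Myc epitope. All tagged strains carried Swc4 fused to 13 Myc epitopes, and were wild type, yaf9Δ, eaf1Δ or swr1Δ. A wild type without the tag completed the 5 groups, each of 2 repeats. Cells grew at 30 °C in 50 ml of YPD, a rich glucose medium, to mid-log phase at an optical density of about 0.6.

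Mitochondria pass electrons from NADH and succinate through ubiquinone, complex III and cytochrome c to complex IV, which reduces oxygen. The proton gradient built by complexes III and IV drives the ATP synthase. Budding yeast has no complex I and uses single-protein NADH dehydrogenases in its place. Most subunits are nuclear-encoded, a few are encoded by mitochondrial DNA, and many of the nuclear genes are known to be partly repressed by glucose and activated by the Hap2/3/4/5 complex. Swc4 belongs both to SWR1, which deposits the histone variant H2A.Z, and to the histone acetyltransferase NuA4. Yaf9 is shared by the same complexes, Swr1 is the ATPase of SWR1, and Eaf1 is the scaffold of NuA4.

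The data were 4 peak lists, 1 per tagged genotype, and each pools the 2 repeats. There is thus no spread between replicates and no test between genotypes, and the lists are set side by side. No list of the untagged strain was used here, so signal that does not depend on the tag was not measured. Peaks numbered 4590 for yaf9Δ, 2937 for eaf1Δ, 1262 for swr1Δ and 625 for wild type, and a longer list reaches more genes of any kind. The read depth behind each list is unknown. Fold below is the peak caller's enrichment of the summit over its local background, and it ranks peaks within 1 list only. Its median over a list was 1.88 for yaf9Δ, 1.85 for eaf1Δ, 1.68 for swr1Δ and 1.67 for wild type. The promoter of a gene means the 500 bp before its annotated start, and a promoter peak overlaps it by at least 1 bp. A body summit is a peak summit between the annotated start and end of the gene. Intervals are exact Clopper-Pearson 95% intervals and cover counting error only.

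The share of these genes with a Swc4 promoter peak was close to that of all genes in wild type and somewhat higher in the mutants, within the counting error. In wild type 5 of 38 had a promoter peak (13.2%, interval 4.41–28.1), against 13.0% of all protein-coding genes. In yaf9Δ it was 19 (50.0%, 33.4–66.6) against 40.5%, and in eaf1Δ 17 (44.7%, 28.6–61.7) against 35.2%. In swr1Δ it was 9 (23.7%, 11.4–40.2) against 17.7%. Under this definition each interval held the share of all genes, so a departure from the genome was not detectable with 38 genes. Of 52 recounts with other thresholds and windows, given below for promoters and bodies, the interval held the share of all genes in 47 and lay above it in 5, which were 4 counts for eaf1Δ and 1 for yaf9Δ.

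Body summits followed the same order between lists, with 1 difference. They lay in 19 genes in yaf9Δ (50.0%, interval 33.4–66.6, against 48.8% of all genes) and in 16 in eaf1Δ (42.1%, 26.3–59.2, against 34.9%). In wild type they lay in 2 (5.26%, 0.644–17.7, against 6.55%). In swr1Δ only QCR2 had one, which is 2.63% (0.0666–13.8) against 11.6%, and its fold was 1.29. The swr1Δ list therefore had 9 of these genes with a promoter peak and no body summit (23.7%, against 13.2% of all genes). For yaf9Δ and eaf1Δ there were 4 such genes each, QCR6, QCR7, COX6 and CYC1 in both (10.5%, against 14.1% and 15.5%).

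**Figure D1:**
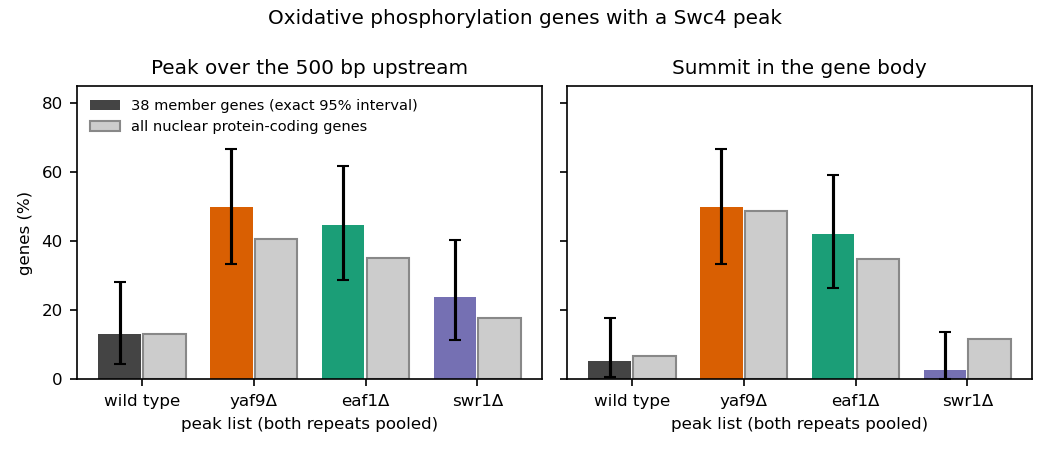
Share of genes (%) with a peak over the 500 bp upstream (left) and with a summit in the gene body (right) in each peak list. Coloured bars are the 38 oxidative phosphorylation genes with exact 95% intervals and grey bars are all 6002 protein-coding genes; the grey bar lies inside the interval in each case, and the swr1Δ body bar (2.63%) is the one furthest below its grey bar (11.6%) in proportion.

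The totals hid a division by gene length. The genes are short, with a median of 465 bp against 1200 bp for all protein-coding genes. Among the 13 of 600 bp or more, 12 had a body summit in yaf9Δ (92.3%, against 52.9% of all genes of that length) and 11 in eaf1Δ (84.6%, against 37.1%). Promoter peaks were also frequent among them, at 11 in yaf9Δ (84.6%, against 39.4%), 9 in eaf1Δ (69.2%, against 34.1%), 6 in swr1Δ (46.2%, against 16.7%) and 3 in wild type (23.1%, against 12.2%). Among the 25 shorter genes the shares were below those of all genes of that length in every list, for promoter peaks and for body summits. There, 8 had a promoter peak in yaf9Δ (32.0%, against 45%), 8 in eaf1Δ (32.0%, against 39.8%), 3 in swr1Δ (12.0%, against 21.8%) and 2 in wild type (8.0%, against 16.4%). The length of 600 bp was chosen after the peaks were seen. With 450 bp, 16 of the 20 longer genes had a body summit in yaf9Δ and 14 in eaf1Δ, against 51.8% and 36.5% of all genes, and with 900 bp it was 9 of 9 and 8 of 9, against 55.1% and 38.7%. Among shorter genes the shares were below those of all genes in each list at 450 bp also. At 900 bp this no longer held for eaf1Δ, where 11 of 29 had a promoter peak (37.9%, against 35.8%) and 8 a body summit (27.6%, against 27.5%). No test was made, and a long gene of these complexes is mostly a large catalytic or redox subunit, so length and role cannot be told apart.

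**Figure D2:**
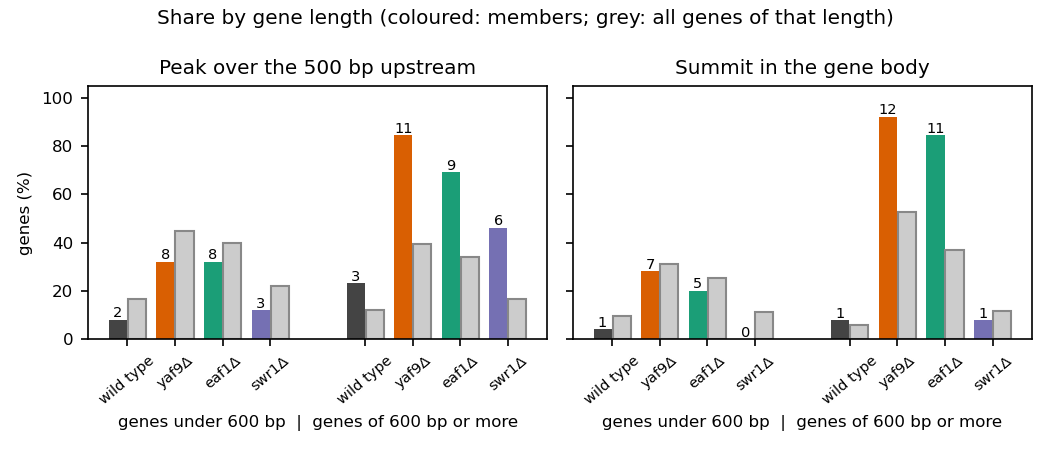
Share of genes (%) with a promoter peak (left) and a body summit (right) for genes under 600 bp and of 600 bp or more. Coloured bars with counts above them are the 25 shorter and 13 longer oxidative phosphorylation genes, grey bars all protein-coding genes of the same length; the longer genes stand above the grey bars in yaf9Δ and eaf1Δ (12 and 11 of 13 with a body summit) and the shorter ones below.

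All 4 genes of complex II had a peak in eaf1Δ, where 50.4% of all genes had a promoter peak or body summit. None had one in wild type or swr1Δ, against 15.5% and 24.9% of all genes, and 4 genes are too few to set apart from those shares. The complex oxidises succinate and feeds the electrons to ubiquinone. SDH1, the flavoprotein subunit, had 1 peak of 3022 bp in eaf1Δ (chromosome XI, 169688–172709, fold 2.13). It covered the whole promoter and most of the gene, with the summit 118 bp inside, and also overlapped the promoter of AVT3. In yaf9Δ it had a separate small peak in the promoter (fold 1.88) and another with its summit 165 bp inside (fold 1.89). SDH2, the iron-sulfur subunit, had its body summits late in the gene, 606 bp from the start in yaf9Δ (fold 2.01) and 623 bp in eaf1Δ (fold 2.26). The peak over its promoter had its summit in the neighbouring gene VPS13 (fold 1.33 in yaf9Δ, 1.77 in eaf1Δ). The membrane anchor SDH3 had a summit 71 bp inside the gene in yaf9Δ (fold 1.88) and 4 bp inside in eaf1Δ (fold 1.52). SDH4, the other anchor, had a peak only in eaf1Δ (fold 2.20, summit 152 bp inside). It was the only member with a promoter peak in eaf1Δ and in no other list (2.63%, against 4.7% of all genes).

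Complex III moves electrons from ubiquinol to cytochrome c, and 6 of its 9 genes had a peak in some list, against 67.3% of all genes. COR1, a core subunit gene, had a body summit about midway, 778 bp from the start in yaf9Δ (fold 2.47) and 779 bp in eaf1Δ (fold 2.97), and an early one at 144 and 155 bp (folds 1.86 and 2.25). A further peak upstream of COR1 was called without Yaf9 (fold 2.66), without Eaf1 (2.79) and without Swr1 (3.0). Its summit, 640 to 655 bp from the start, lay in YBL044W, and it overlapped the far edge of the COR1 promoter by 17 to 44 bp, so it is nearer to the neighbours than to COR1.

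QCR2, the other core subunit, had the wild-type peak of highest fold among these genes, 2.23 (chromosome XVI, 918714–919092, −log10 q 20.7, rank 221 of 625). The peak recurred in yaf9Δ (fold 2.10) and eaf1Δ (2.51) with summits 473 to 514 bp upstream, and was not called in swr1Δ. In each of those lists the summit lay in the adjacent gene RPC82, which encodes a subunit of RNA polymerase III. Within QCR2 a body summit lay 346 bp from the start in swr1Δ (fold 1.29), 365 bp in eaf1Δ (2.14) and 389 bp in yaf9Δ (2.08).

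The redox subunits of complex III showed different sites in different lists. RIP1, the Rieske iron-sulfur protein, had an upstream summit at 219 bp in yaf9Δ (chromosome V, 106865–107206, fold 3.28) and at 224 bp in swr1Δ (106886–107182, fold 3.81). Its body held a summit 406 bp inside in yaf9Δ (fold 1.89) and 407 bp inside in eaf1Δ (fold 2.36). The eaf1Δ peak was 1 interval of 1014 bp that covered both sites and had its summit in the body. CYT1, cytochrome c1, likewise had upstream summits 500 bp away in yaf9Δ (fold 1.86) and 502 bp away in swr1Δ (fold 1.67), and body summits 166 bp inside in yaf9Δ (1.72) and 146 bp inside in eaf1Δ (1.82). The upstream CYT1 peak also overlapped the promoter of YNG1, a subunit of a histone acetyltransferase.

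Among the small subunits of complex III, QCR6 was bound upstream in all 4 lists and QCR7 in yaf9Δ (fold 1.43) and eaf1Δ (fold 1.49), while QCR8, QCR9 and QCR10 had no promoter peak or body summit in any list. QCR6 encodes the acidic hinge subunit. Its summit lay 229 bp upstream in wild type (fold 1.48) and at 231 bp (eaf1Δ, fold 1.41), 238 bp (swr1Δ, 2.46) and 281 bp (yaf9Δ, 2.64) in the mutants. The local background was high at this place in each list, from 220 to 323 fragments, where the lowest of the lists was 54.4 to 64.3. In yaf9Δ the called interval ran over 4908 bp and over the promoters of 7 other genes, PHO4 among them.

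Complex IV, which reduces oxygen, had no wild-type peak, against 15.5% of all genes. In a mutant list 5 of its 9 genes had a peak, where 67.3% of all genes had one in at least 1 of the 4 lists. Its COX5A and COX5B genes encode alternative forms of 1 subunit, used in air and in low oxygen. COX5A had an upstream summit at 470 bp in yaf9Δ (fold 1.33) and 452 bp in eaf1Δ (1.56), both in the gene MSG5, and a body summit at 252 bp in yaf9Δ (1.76) and 136 bp in eaf1Δ (2.08). COX5B had peaks in yaf9Δ only, upstream (fold 2.45, summit in HOS4) and 152 bp inside the gene (1.81). COX9, a gene of 180 bp, had 1 peak over its whole length, with a fold of 2.11 in yaf9Δ and 1.77 in eaf1Δ. That peak also overlapped the promoters of CBS1 and IDP1. COX13 had a body summit alone (1.88 and 1.87). The COX6 promoter was reached by a peak whose summit lay in the upstream gene SMF2 in all 3 mutants (folds 1.77, 1.68 and 1.38). COX4, COX7, COX8 and COX12 had no peak by either measure.

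In complex V, which makes ATP, 6 of 12 genes had a peak in at least 1 list, against 67.3% of all genes. They were 4 of the 5 genes of the F1 part, meaning the catalytic head with its central stalk. The others were 2 of the 7 of the stator, which is the peripheral stalk, and membrane sector. ATP1 and ATP2 encode the alpha and beta subunits. Upstream of ATP1 a peak of high fold occurred in the 3 mutants, with folds on chromosome II of 4.14 at 36325–36689 for yaf9Δ, 3.49 at 36357–36712 for eaf1Δ and 4.09 at 36333–36676 for swr1Δ, and in wild type none was called. It had the highest fold of any peak at these genes in each mutant list. In all 3 lists it lay within 100 bp of the tRNA gene YNCB0002W, with summits 492 to 551 bp from the ATP1 start at the far edge of the promoter.

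ATP1 had a second peak, over most of its body, in yaf9Δ (1475 bp, fold 2.0) and eaf1Δ (1544 bp, fold 2.62), with summits 116 and 112 bp inside. In eaf1Δ it was the most significant peak of the whole set of genes (−log10 q 76.5, rank 92 of 2937). ATP2 also had an upstream summit, at 391 bp in yaf9Δ (fold 2.44) and 413 bp in swr1Δ (2.91). Its body summit lay later in the gene than that of ATP1, at 1030 bp in yaf9Δ (2.09) and 1034 bp in eaf1Δ (2.45). Unlike at ATP1, the eaf1Δ peak at ATP2 was 1 interval, of 1793 bp, that covered the upstream site. In wild type ATP2 had a weak peak with its summit 140 bp inside (fold 1.23, −log10 q 2.03), near the end of the list at rank 592. The upstream ATP2 peak also overlapped the promoter of DMO1.

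Of the other 10 ATP synthase genes, ATP5, the subunit that joins head and stator, had a peak across its start in yaf9Δ (fold 2.06) and eaf1Δ (2.15). ATP3, ATP14 and ATP16 had a body summit in yaf9Δ alone, with folds of 1.70, 2.64 and 2.06. Of all genes, 48.8% had one in yaf9Δ, and 18.6% had one in yaf9Δ and not in eaf1Δ. ATP4, ATP7, ATP15, ATP17, ATP18 and ATP20 had none. Apart from ATP15, the epsilon subunit of the F1 part, those 6 encode subunits of the stator or the membrane sector.

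Of the cytochrome c genes, CYC1, expressed in air, had a promoter peak in all 4 lists, and CYC7, the isoform of low oxygen, had none. In the 3 mutants the CYC1 summits fell within 285 to 300 bp upstream, with a fold of 3.43 on chromosome X at 525867–526518 for yaf9Δ, 3.26 at 525894–526545 for eaf1Δ and 3.16 at 525879–526506 for swr1Δ. The wild-type peak lay over the same stretch (526017–526559), but was weak (fold 1.32, −log10 q 2.88), with its summit 87 bp inside the gene. In yaf9Δ and swr1Δ the peak also overlapped the promoter of ANB1, a neighbouring gene known to be repressed in air.

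Both NADH dehydrogenase genes had peaks, against 67.3% of all genes in at least 1 list. NDE1, the enzyme facing the intermembrane space, had an early body summit at 163 bp in yaf9Δ (fold 2.29) and 164 bp in eaf1Δ (2.43), and in swr1Δ an upstream summit 670 bp from the start (3.03). The peak over its promoter in wild type (1.41), yaf9Δ (2.22) and eaf1Δ (1.61) had its summit in TIF34, a translation initiation factor gene, 1166 to 1175 bp away. NDI1, the enzyme facing the matrix, had a body summit 109 bp inside in yaf9Δ (fold 2.24) and others at 1139 bp in yaf9Δ (2.0) and 724 bp in eaf1Δ (1.98).

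**Figure D3:**
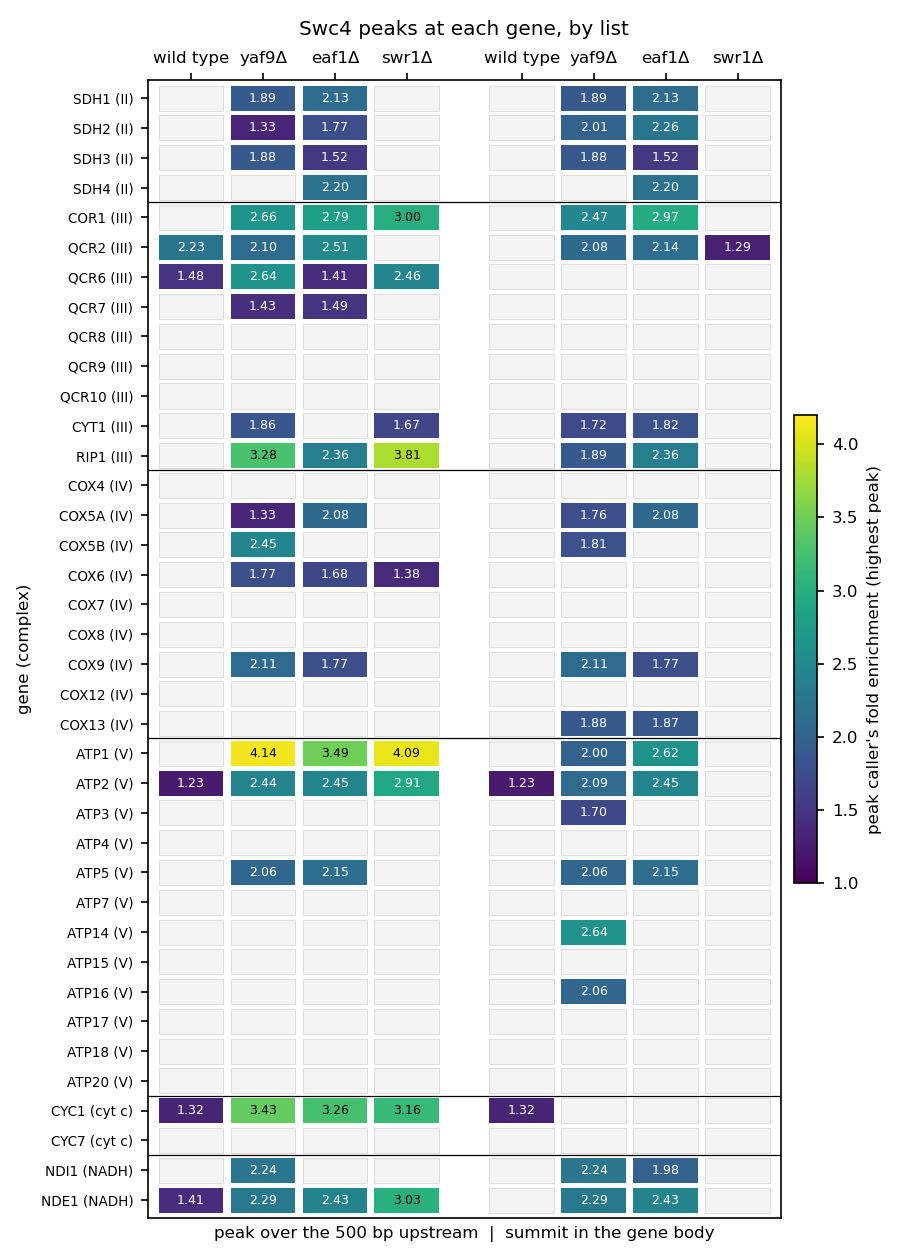
Highest fold enrichment of any peak over the promoter (left block) and of any peak with its summit in the body (right block) for each of the 38 genes in each list; empty cells have no peak. Colours rank peaks within a list and do not compare lists; the swr1Δ body column has 1 filled cell (QCR2, 1.29), and ATP1 has the highest promoter fold in each mutant column (4.14, 3.49 and 4.09).

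A promoter peak or body summit in at least 1 list was found for 24 of the 38 genes (63.2%, against 67.3% of all genes). By complex it was 4 of 4 genes of complex II, 6 of 9 of complex III, 5 of 9 of complex IV and 6 of 12 of complex V, with 1 of 2 cytochrome c and 2 of 2 NADH dehydrogenase genes. In swr1Δ, promoter peaks were at 4 of 9 genes of complex III, 2 of 12 of complex V, 1 of 9 of complex IV and 0 of 4 of complex II, against 17.7% of all genes. In yaf9Δ they were at 6, 3, 4 and 3, in the same order of complexes, against 40.5%. Median gene length was 699 bp in complex II, 444 bp in complex III, 390 bp in complex IV and 504 bp in complex V. With groups of 2 to 12 genes these counts describe the complexes and rank none of them.

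Across lists, QCR6, ATP2, CYC1 and NDE1 had a promoter peak in all 4 (10.5% of the genes, against 6.21% of all genes), and COR1, RIP1, COX6 and ATP1 in the 3 mutants and not in wild type (10.5%, against 8.08%). A group of 7, SDH1, SDH2, SDH3, QCR7, COX5A, COX9 and ATP5, had one in yaf9Δ and eaf1Δ alone (18.4%, against 12.6%). CYT1 had one in yaf9Δ and swr1Δ, and QCR2 in all but swr1Δ. Counted regardless of wild type, yaf9Δ and swr1Δ without eaf1Δ held 2.63% of the genes, against 3.08% of all genes. COX5B and NDI1 had one in yaf9Δ alone (5.26%, against 6.48%) and SDH4 in eaf1Δ alone (2.63%, against 4.7%). No promoter peak was called at 18 genes (47.4%, against 53.6%).

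The yaf9Δ and eaf1Δ lists named nearly the same genes for body summits. They shared 15, which is 78.9% of the 19 in yaf9Δ and 93.8% of the 16 in eaf1Δ, and over all genes those shares were 61.8% and 86.5%. Between the mutant lists, most summits of overlapping peaks at these genes also fell at nearly the same bases. Summit distances were not computed over all genes for any pair of lists, so this closeness cannot be called particular to these genes. Of 30 pairs of overlapping peaks between these lists, 22 had summits at most 60 bp apart, with a median of 17 bp. Between yaf9Δ and swr1Δ, 8 of 10 overlapping pairs were at most 60 bp apart, with a median of 32 bp, and all but the QCR2 pair were upstream peaks. Between eaf1Δ and swr1Δ, 6 of 9 overlapping pairs were that close, with a median of 23 bp and a largest distance of 1447 bp. For wild type, 3 of 6 overlapping pairs with yaf9Δ were that close (median 219 bp). It was 3 of 5 with eaf1Δ (median 27 bp) and 1 of 4 with swr1Δ (median 446 bp).

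The place of the summit within promoter peaks differed between the lists, counted over each list's own peaks. The genes behind these counts are only partly shared, at 8 of the 17 in eaf1Δ and the 9 in swr1Δ. Of the 21 promoter peaks in eaf1Δ, 11 had the summit in the body of the gene itself (52.4%, against 32.9% over all genes), and in yaf9Δ it was 8 of 23 (34.8%, against 25.9%). In swr1Δ it was 0 of 9 (against 13.6%), and all 9 summits lay 224 to 670 bp upstream. At RIP1, CYT1 and ATP2 the yaf9Δ list held both the upstream summit of swr1Δ and the body summit of eaf1Δ. Body summits tended to be early: 16 of 22 in yaf9Δ and 13 of 17 in eaf1Δ were in the first 500 bp of the gene (72.7% and 76.5%, against 42.2% and 51.6% for all genes). These genes are shorter than most, which limits how far from the start a summit can be.

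**Figure D4:**
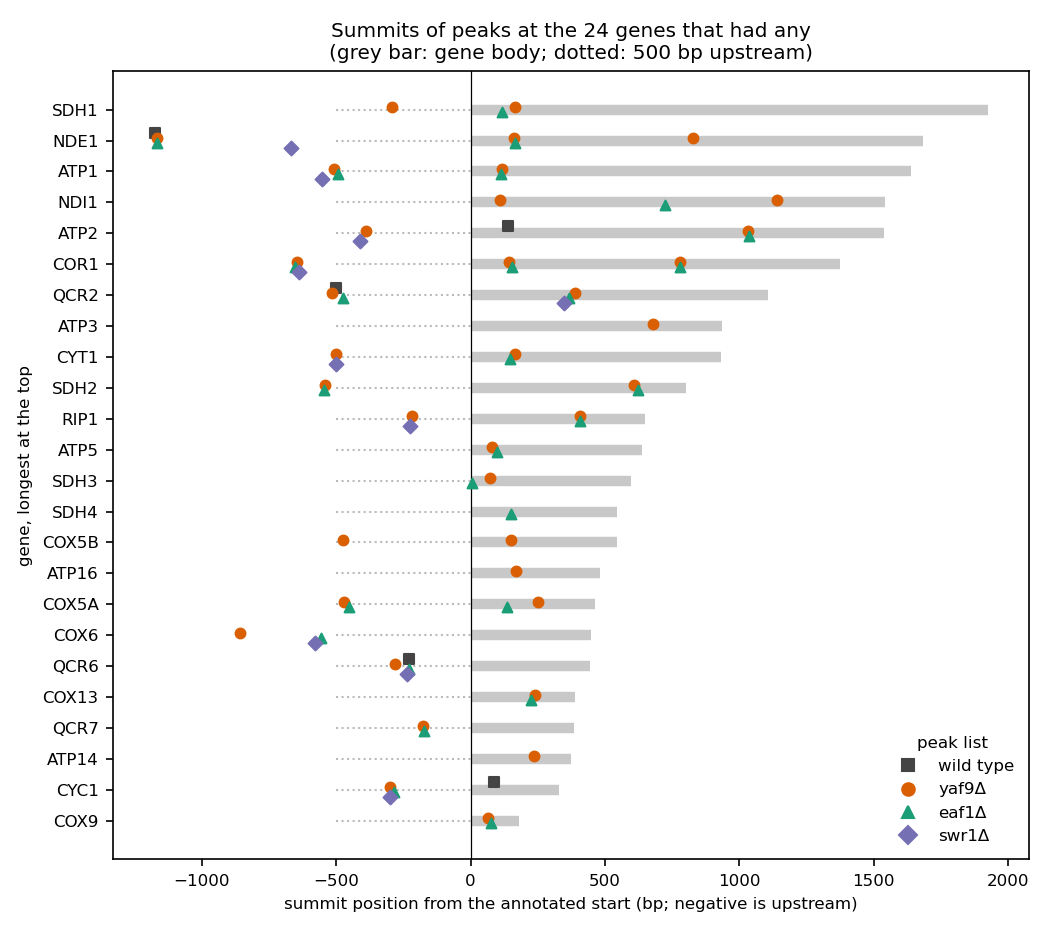
Position of each peak summit relative to the annotated start (bp, negative upstream) for the 24 genes with any promoter peak or body summit, longest gene at the top. Grey bars are gene bodies and dotted lines the 500 bp upstream; the yaf9Δ circles and eaf1Δ triangles coincide inside genes such as COR1 (778 and 779 bp), and the swr1Δ diamonds lie upstream except at QCR2 (346 bp).

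Many promoter peaks were not private to the gene. The peak overlapped the promoter of another protein-coding gene in 9 of 23 cases for yaf9Δ, 9 of 21 for eaf1Δ, 6 of 9 for swr1Δ and 2 of 5 for wild type. The summit lay in the body of another gene in 9, 6, 3 and 2 cases, in that order. A tRNA gene was within 100 bp of the peaks upstream of ATP1 and, in yaf9Δ, of QCR6, and no peak reached a ribosomal protein promoter. When each peak counted only for the gene whose start was nearest its summit, promoter peaks remained at 15 genes for yaf9Δ (39.5%, against 25.3% of all genes), 15 for eaf1Δ (39.5%, against 22.2%), 5 for swr1Δ (13.2%, against 10.5%) and 3 for wild type (7.89%, against 7.2%). The eaf1Δ share had an interval of 24% to 56.6%, above that of all genes. That assignment was added after the data were seen.

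Stricter thresholds lowered most counts, and the members' shares in yaf9Δ and eaf1Δ were above those of all genes under both thresholds. With peaks of fold at least 2, promoter peaks lay at 12 genes for yaf9Δ (31.6%, against 20.1% of all genes), 11 for eaf1Δ (28.9%, against 17.0%), 7 for swr1Δ (18.4%, against 9.51%) and QCR2 alone for wild type (2.63%, against 4.47%). Body summits of that fold lay in 11 genes for yaf9Δ (28.9%, against 17.1%), 11 for eaf1Δ (28.9%, against 11.7%) and none for swr1Δ or wild type (against 1.27% and 0.7%). The interval of that eaf1Δ body share was 15.4–45.9%, above the share of all genes. With −log10 q of at least 5, promoter peaks lay at 16 for yaf9Δ (42.1%, against 38.3%), 17 for eaf1Δ (44.7%, against 33.1%), 8 for swr1Δ (21.1%, against 14.5%) and 3 for wild type (7.89%, against 11.0%). Body summits then lay in 19 for yaf9Δ (50.0%, against 44.4%), 16 for eaf1Δ (42.1%, against 31.0%) and none for swr1Δ or wild type (against 6.11% and 4.75%).

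The place required of the peak mattered as well. With the summit itself inside the 500 bp, 9 promoters counted for yaf9Δ (23.7%, against 15.4%), 6 for eaf1Δ (15.8%, against 11.7%), 4 for swr1Δ (10.5%, against 8.06%) and 2 for wild type (5.26%, against 4.73%). With 250 bp it was 14 for yaf9Δ (36.8%, against 24.8%), 16 for eaf1Δ (42.1%, against 24%), 4 for swr1Δ (10.5%, against 9.51%) and 3 for wild type (7.89%, against 8.66%). The eaf1Δ share again lay above, with an interval of 26.3–59.2%. Without peaks that reach a tRNA gene or a ribosomal protein promoter it was 18 for yaf9Δ (47.4%, against 35.6%), 17 for eaf1Δ (44.7%, against 32.5%), 8 for swr1Δ (21.1%, against 13.3%) and 5 for wild type (13.2%, against 9.73%). When a peak only had to overlap the body, 21 genes counted for yaf9Δ (55.3%, against 54.1%), 18 for eaf1Δ (47.4%, against 40.2%), 3 for swr1Δ (7.89%, against 15.4%) and 2 for wild type (5.26%, against 10.5%). Body summits outside every promoter lay in 19 genes for yaf9Δ (50.0%, against 43.7%), 16 for eaf1Δ (42.1%, against 29.9%), 1 for swr1Δ (2.63%, against 10.1%) and 2 for wild type (5.26%, against 4.88%).

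Some peaks reached the promoter window by a few bases. The least overlaps were 3 bp at SDH1 in yaf9Δ and 4 bp at COR1 in eaf1Δ, both from peaks with a summit inside the gene. Both genes had a second promoter peak in the same list, with 221 bp and 17 bp inside the window, so neither count rested on the smaller overlap. Just outside the window, the nearest peak ended 10 bp beyond the window at QCR9 (fold 2.39), 16 bp beyond at CYC7 (1.71) and 26 bp beyond at ATP18 (1.55), all in eaf1Δ. With 1000 bp in place of 500 bp the count was 29 in yaf9Δ (76.3%, against 55.2% of all genes) and 26 in eaf1Δ (68.4%, against 45.7%), with 12 in swr1Δ (31.6%, against 23.1%) and 5 in wild type (13.2%, against 16.1%). The intervals for yaf9Δ (59.8–88.6%) and eaf1Δ (51.3–82.5%) lay above the shares of all genes.

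The 14 genes with neither a promoter peak nor a body summit in any list made up 36.8% of the set, against 32.7% of all genes. Their median length was 301 bp, against 618 bp for the 24 with a peak. Of the 25 genes under 600 bp, 13 were in this group (52.0%, against 41.0% of all genes of that length), and ATP4 was the only longer one (7.69% of 13, against 30.7%).

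Ranked by q within its own list, the median promoter peak at these genes was in the top 22% for swr1Δ, 26.5% for yaf9Δ, 29.0% for eaf1Δ and 67.5% for wild type. For body summits it was the top 28.2% for eaf1Δ, 42% for yaf9Δ, 91.8% for wild type (2 peaks) and 96.4% for the single swr1Δ peak, so those few peaks stood low in their lists. In swr1Δ the 9 promoter peaks had folds from 1.38 to 4.09 with a median of 3.0, above the list's 1.68, and −log10 q from 4.04 to 90.3. In yaf9Δ the 23 had a median fold of 2.10 and in eaf1Δ the 21 had 2.15, both above their lists' medians, and in wild type the 5 had 1.41, below it. Over all genes, the median fold of promoter peaks was 1.75 in wild type, 1.96 in yaf9Δ and eaf1Δ and 2.16 in swr1Δ. With each list limited to its 625 most significant peaks, eaf1Δ had a body summit at 6 genes, COR1, RIP1, COX5A, ATP1, ATP2 and NDE1 (15.8%, against 6.05%), and yaf9Δ and swr1Δ at none (against 4.25% and 2.77%). Promoter peaks among those were at 8 genes in eaf1Δ (21.1%, against 11.4%), 8 in swr1Δ (21.1%, against 11.8%), and 5 each in yaf9Δ and wild type (13.2%, against 11.1% and 13.0%).

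The pileup and local background behind a fold could be solved from the deposited values. At RIP1 upstream, 198 fragments stood over a background of 59.6 in yaf9Δ and 210 over 54.4 in swr1Δ, the lowest background of either list. At the ATP1 body in eaf1Δ, 514 fragments stood over 196, and at ATP2 486 over 198. The body summits of these genes in eaf1Δ had a median background of 107, against 111 for all body summits, and a median pileup of 234, against 201. In yaf9Δ the medians were 78.3 for background, against 86.5, and 163.5 for pileup, against 162.0. The read depth of each list is not known, so fragments are not compared between lists.

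**Figure D5:**
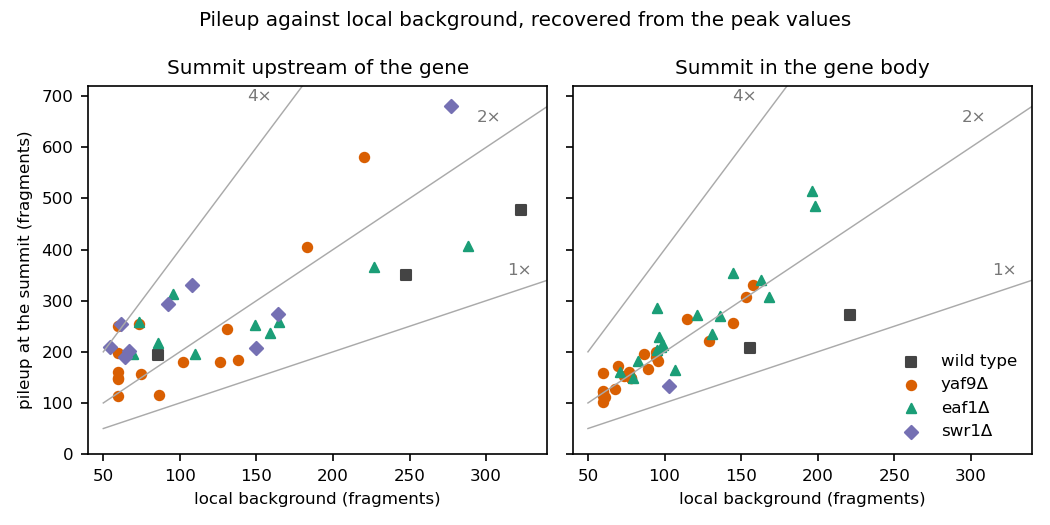
Pileup at the summit against local background (fragments, recovered from fold and −log10 p) for peaks with the summit upstream of the gene (left) and in the gene body (right). Grey lines mark equal, 2-fold and 4-fold pileup; on the left the QCR6 peak has the highest background of each list (220 to 323), with the upstream NDE1 peaks of wild type (248) and eaf1Δ (227) next in theirs, and the eaf1Δ body peaks of ATP1 and ATP2 have the highest pileups on the right (514 and 486).

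Further subunits of complexes III, IV and V are encoded by mitochondrial DNA, where peaks were called in the mutants only. The number there was 68 for yaf9Δ (fold 1.29 to 2.80), 37 for eaf1Δ (1.28 to 2.50), 4 for swr1Δ (1.24 to 1.54) and 0 for wild type. COX1 with its introns held 7 summits in yaf9Δ and 3 in eaf1Δ, and COB, cytochrome b, held 3 and 1. COX2, COX3 and ATP6 held 1 each in yaf9Δ (folds 1.70, 1.73 and 1.66) and none elsewhere. ATP8 and OLI1 had no peak. Swc4 is a nuclear protein, and no untagged list was used here to measure unspecific signal on this DNA.

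Genes around the pathway, from lists written with earlier results of these data known, were also looked up. Of 38 assembly factors, a promoter peak lay at 18 for eaf1Δ (47.4%, against 35.2% of all genes), 16 for yaf9Δ (42.1%, against 40.5%), 6 for wild type (15.8%, against 13.0%) and 5 for swr1Δ (13.2%, against 17.7%). Those with a wild-type peak were SDH7 (fold 2.55), which helps to assemble complex II, COX14 (2.05), COX18 (1.91), COA3 (1.89), MSS51 (1.64) and COX19 (1.53), which serve complex IV. SDH7 also had a fold of 5.43 in yaf9Δ and 3.08 in eaf1Δ, and no peak in swr1Δ. Of 11 other subunits and regulators of the complexes, RCF2 alone had a wild-type promoter peak (9.09%, against 13.0%, fold 1.26), and its fold was 2.92 in yaf9Δ, 1.73 in eaf1Δ and 2.53 in swr1Δ.

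Genes of the citric acid cycle, which supplies the electrons, often had body summits in yaf9Δ and eaf1Δ. Of its 14 genes, 14 had one in yaf9Δ (against 48.8% of all genes), 10 in eaf1Δ (71.4%, against 34.9%), 0 in swr1Δ (against 11.6%) and 1 in wild type (7.14%, against 6.55%). Promoter peaks lay at 8 for yaf9Δ (57.1%, against 40.5%), 9 for eaf1Δ (64.3%, against 35.2%) and 5 for swr1Δ (35.7%, against 17.7%). In wild type the only one was at IDH1 (7.14%, against 13.0%), a subunit of isocitrate dehydrogenase (fold 2.52, with 4.98 in yaf9Δ, 2.10 in eaf1Δ and 4.6 in swr1Δ). Gene length was not matched in these further lists. Among all genes of 900 bp or more, 55.1% had a body summit in yaf9Δ and 38.7% in eaf1Δ. Of 10 carriers and porins, PET9 (fold 1.32) and AAC3 (3.37), both ADP/ATP carriers, had a wild-type promoter peak (20%, against 13.0%), and that at AAC3 also overlapped the promoter of the ribosomal protein gene RPL19A.

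Among 12 genes listed as regulators of respiratory genes, a promoter peak lay at 10 each for yaf9Δ and eaf1Δ (83.3%, against 40.5% and 35.2% of all genes), 5 for wild type (41.7%, against 13.0%) and 4 for swr1Δ (33.3%, against 17.7%). Body summits lay in 11 for yaf9Δ (91.7%, against 48.8%), 7 for eaf1Δ (58.3%, against 34.9%) and 7 for swr1Δ (58.3%, against 11.6%). Wild type had none there (against 6.55%). The 12 include HEM1, which encodes an enzyme of heme synthesis and not a regulator. It is in the promoter counts for yaf9Δ (fold 1.5), eaf1Δ (1.53) and swr1Δ (1.35), and in the body counts for yaf9Δ and swr1Δ. ROX1, the repressor of genes of low oxygen, had the highest fold of this list in each genotype: 10.3 for swr1Δ, 9.24 for yaf9Δ, 7.22 for eaf1Δ and 2.94 for wild type. The eaf1Δ peak was that of highest fold in the entire list, and the swr1Δ peak was the fourth. MOT3, another repressor of such genes, had folds of 6.67 for swr1Δ, 6.39 for yaf9Δ, 4.46 for eaf1Δ and 2.45 for wild type. HAP1, a heme-dependent activator, had folds of 3.92 for swr1Δ, 4.64 for yaf9Δ, 3.12 for eaf1Δ and 1.71 for wild type. HAP2 (1.32) and SNF1 (1.34) were the others with a wild-type peak, and HAP4, the regulated subunit of the Hap complex, had no promoter peak or body summit in any list.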

How the data were processed

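Swc4 ChIP-seq peak lists of 4 tagged genotypes were analysed, each made by the authors from both repeats per the labels. The submitters' processing notes name fastp 0.21.0, BWA 0.7.15-r1140, SAMtools 1.4 and MACS2 as the tools. Build, control and settings, not given in the sources used here, could change which peaks were called. For each peak the deposited values are the authors' fold enrichment, which is a ratio to the local background, a score that is −log10 p, a −log10 q and the summit.

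Genes came from the R64 RefSeq table, with strand read from the systematic name. A summit lay within 60 bp of the middle of 112 of 275 tRNA genes in swr1Δ, and of 2 to 4 when shifted by 500 or 1000 bp, and in the other lists 34, 114 and 76 against at most 13, so the peaks were read on R64. Shares of genes were computed in Python 3.11.15 with pandas 2.3.3 and SciPy 1.17.1, beside those of all 6002 genes, with no test. Pileup and background were solved from fold and −log10 p up to 250 with the Poisson formula of MACS2, and pileup came out whole within 0.05 at 97.9% to 99.8% of summits, against at most 10.8% with −log10 p perturbed. The counting and solving steps were tested on simulated data. The members and lists were chosen with earlier results of these data known. All 38 members are named, and of the other lists those with a wild-type promoter peak. The planned motif count was not made, since no promoter sequence was used here.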

Additional observations from a re-analysis of the deposited data

How the results depend on the processing

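Of 52 recounts of the 8 totals, 27 stayed within 1.5 times the reported count and 25 did not. The equal list length of 625 is the whole wild-type list, so the wild-type recounts under that setting could not move. The number of genes with a promoter peak moved from 5 in wild type to 3 with −log10 q of at least 5, 1 with fold of at least 2, 3 with 250 bp, 2 by summit, which places the summit itself in the promoter and 3 with the nearest start. In yaf9Δ it moved from 19 to 12 with fold of at least 2, 5 at equal list length, 29 with 1000 bp and 9 by summit. In eaf1Δ it moved from 17 to 11, 8, 26 and 6 under the same settings. In swr1Δ it moved from 9 to 4 with 250 bp, 4 by summit and 5 with the nearest start. Body summits moved from 2 to 0 in wild type with −log10 q of at least 5 and 0 with fold of at least 2. In yaf9Δ they moved from 19 to 11 with fold of at least 2 and 0 at equal list length, and in eaf1Δ from 16 to 6 at equal list length. The 1 in swr1Δ became 0 with −log10 q of at least 5, with fold of at least 2 and at equal list length, and 3 when the peak only had to overlap the body. Stricter settings hold fewer peaks, and wider windows more, by construction. Leaving out peaks at tRNA genes and ribosomal protein promoters kept every promoter count within 1.5 times. Of 312 recounts by complex, 83 moved by more. Those that did not move include counts of 0 that a stricter setting cannot change, so they are no measure of stability. No paired analysis was possible because each list pools both repeats, and for the same reason no repeat could be left out.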

Other observations

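A few called intervals at these genes were long for their lists. The yaf9Δ interval at QCR6 was 4908 bp, where the median peak of that list was 366 bp, and the eaf1Δ interval at SDH1 was 3022 bp, where the median was 449 bp. In wild type the widest was 819 bp, at NDE1, with a list median of 558 bp. A long interval can count for several genes by overlapping their promoters, wherever its single summit lies. At QCR6 it reached the promoters of CDC26, RSC8 and IRC5.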
